A study of Mus musculus with 9 samples.

Results

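The genes described here were 10 members of the cytosolic DNA and RNA sensing pathway: *Tmem173* (which encodes STING), *Trex1*, *Zbp1*, *Ifih1* (MDA5), *Ddx58* (RIG-I), *Mavs*, *Tbk1*, *Ikbke*, *Irf3* and *Irf7*. They were chosen by symbol, as 10 of the 54429 symbols in the count table, by a rule that used no measured value. Earlier results of these data were known when they were chosen. RNA-seq was performed on 9 whole tumors grown from NB9464, a mouse neuroblastoma cell line, placed under the skin of wild-type C57BL/6 mice aged 4 to 6 weeks. The groups were 3 Vehicle tumors, 3 tumors labelled R788 + anti-PDL1 and 3 irradiated tumors labelled Rad + R788 + anti-PDL1. R788 is fostamatinib, an oral prodrug that inhibits the kinase Syk, given at 50 mg/kg, and anti-PDL1 is an antibody against the checkpoint ligand PD-L1. The radiation dose was 10 Gy, and treatment began at a tumor volume of 250 mm3, with 4 treatment days from day 28 to day 37. Irradiated tumors therefore also received R788 and anti-PDL1, and tumors given radiation alone were not analysed here.

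Cells carry receptors that detect nucleic acids in the cytosol. DNA is detected by cGAS, which makes a cyclic dinucleotide that activates STING, whereas RNA is detected by RIG-I and MDA5, which signal through MAVS on mitochondria. Both arms converge on the kinases TBK1 and IKKε and on the transcription factors IRF3 and IRF7, which switch on type I interferon genes. The nuclease TREX1 degrades cytosolic DNA and so limits this signalling, and ZBP1 binds left-handed nucleic acids and can trigger necroptosis. Ionizing radiation is known to place DNA fragments and micronuclei in the cytosol of tumor cells. Several of the genes, *Irf7* and *Zbp1* among them, are themselves induced by interferon.

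The promoter windows of these genes differed in whether they held the letters of an interferon-stimulated response element, the sequence bound by the interferon-activated complex ISGF3. RefSeq windows (GRCm38.p6) from 250 bases before to 50 bases after a start were searched for 8 members, as 9 windows. *Tmem173* and *Zbp1* had no window in this search, so whether they hold these letters was not examined. The core, in which GAAA is followed by any 2 bases and GAAA again, was searched on both strands, and 3.44% of all 32851 windows held it. Among the members' windows it was found in *Ifih1* and *Ddx58*. The AP-1 site TGANTCA, present in 7.81% of all windows, was found in *Ikbke*. The stretches that hold these letters are shown 5′ to 3′ on the gene's strand, with the match in capitals.
Ifih1, chr2:62646206-62646231, minus strand: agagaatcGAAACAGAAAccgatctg
Ddx58, chr4:40239806-40239831, minus strand: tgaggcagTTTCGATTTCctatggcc
Ikbke, chr1:131279555-131279577, minus strand: gagagaagTGAATCAggaagtat

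Counting the start base as 0, the *Ifih1* match lay at bases 32 to 41 and the *Ddx58* match at bases 2 to 11, where the core reads on the opposite strand. The *Ikbke* match lay at bases -6 to 0. The kappa B letters, GGGA and TTTCC with any base between them (0.411% of all windows), were in none of the windows searched. Neither were the gamma-activated letters TTCNNNGAA (8.3%). The GC box GGGCGG, held by 35.7% of all windows, was in the windows of *Mavs*, *Ddx58*, *Irf3*, *Trex1* and *Tbk1*. The window of *Irf7*, the member that varied most between tumors, held none of these 5 sets of letters. Its part upstream of any annotated exon is shown.
Irf7, chr7:141266482-141266674, minus strand: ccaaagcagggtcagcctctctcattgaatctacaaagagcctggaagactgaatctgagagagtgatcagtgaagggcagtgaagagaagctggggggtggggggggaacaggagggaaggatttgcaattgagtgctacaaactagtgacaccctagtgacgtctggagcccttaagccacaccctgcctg
These matches are descriptions of letters in a window, and no binding was measured.

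All 10 genes were detected in every tumor and passed the low-count filter, which kept 15931 genes. Expression is given as CPM, the count scaled to a common library size with TMM factors. Divided by exon length, the median level over the 9 tumors was highest for *Mavs* (14.0 CPM per kb), followed by *Tmem173* (11.3), *Tbk1* (9.64), *Irf3* (7.64), *Trex1* (6.69), *Ddx58* (3.77), *Ifih1* (1.88), *Ikbke* (1.70), *Irf7* (1.26) and *Zbp1* (0.499 CPM per kb). The adaptors STING and MAVS and the kinase TBK1 were thus at the top of this order, and the interferon-inducible *Irf7* and *Zbp1* at the bottom. Exon length is the merged length of all annotated exons of a gene, 9018 bases for *Ikbke* and 1147 for *Trex1*, and the order depends on it. The *Trex1* count is also uncertain, as described below. Neighbours in the order had overlapping ranges, except that the lowest *Ddx58* tumor (3.11 CPM per kb) lay above the highest *Ifih1* tumor (2.90 CPM per kb). In whole tumors, fewer cells of a type and less RNA per cell cannot be told apart.

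Total counts were 18276683 to 23397886 per library. The library of irradiated replicate 1 stood apart, with a TMM factor of 0.743 against 0.975 to 1.12 in the other 8, 18263 genes with a count against 19732 to 22129, and the highest level of all libraries for 30.4% of the genes tested. Several values of the irradiated group are therefore also given without it. The neuroblast marker *Th*, tyrosine hydroxylase, had 0 counts in all 9 libraries, whereas *Hand2*, a transcription factor of sympathetic neuroblasts, had 6545 to 12901. Another neuroblast factor, *Isl1*, had 0 counts in each Vehicle library and 14 to 80 in the 6 treated libraries, and it was the only cell type marker that edgeR called, at an adjusted p of 0.0344 between R788 + anti-PDL1 and Vehicle. Nothing in the labels ties replicates to separate litters or days, and the p-values set group differences against the spread between these tumors.

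Across the 3 comparisons no sensing gene passed the edgeR quasi-likelihood test at an adjusted p under 0.05. For R788 + anti-PDL1 against Vehicle, 0 of 10 genes were called, where 0.678% of all genes tested were called. For irradiated against Vehicle tumors, 0 of 10 were called against a background of 0.0439%. For irradiated against R788 + anti-PDL1 tumors, which differ by radiation, 0 of 10 were called against 0.00628%. At an unadjusted p under 0.05 the numbers were 1, 1 and 2 of the 10 genes, against 11.7%, 13.2% and 18.4% of all genes. The groups did not overlap for 0, 1 and 2 of the 10 genes, against 30.1%, 20.5% and 27.4% of all genes. With only 10 members, these shares were not read as a difference between the members and all genes.

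DESeq2 called 0, 1 and 2 of the 10 genes, where it called 4.86%, 3.85% and 5.76% of all genes, and limma-voom called 0, 0 and 0. With sample quality weights, an alternative added after seeing the data, voom called 1, 0 and 2 of the 10, where it called 30.3%, 12.6% and 19.4% of all genes. The genes concerned were *Tmem173* and *Trex1*. The median log2 fold change of the 10 genes was -0.00 for R788 + anti-PDL1 against Vehicle, 0.14 for the irradiated tumors against Vehicle and 0.20 for the irradiated tumors against R788 + anti-PDL1. Over all genes tested the medians were -0.02, 0.05 and 0.04. Without irradiated replicate 3 the 2 irradiated medians became -0.19 and -0.11, so their direction rested on that tumor.

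**Figure D1:**
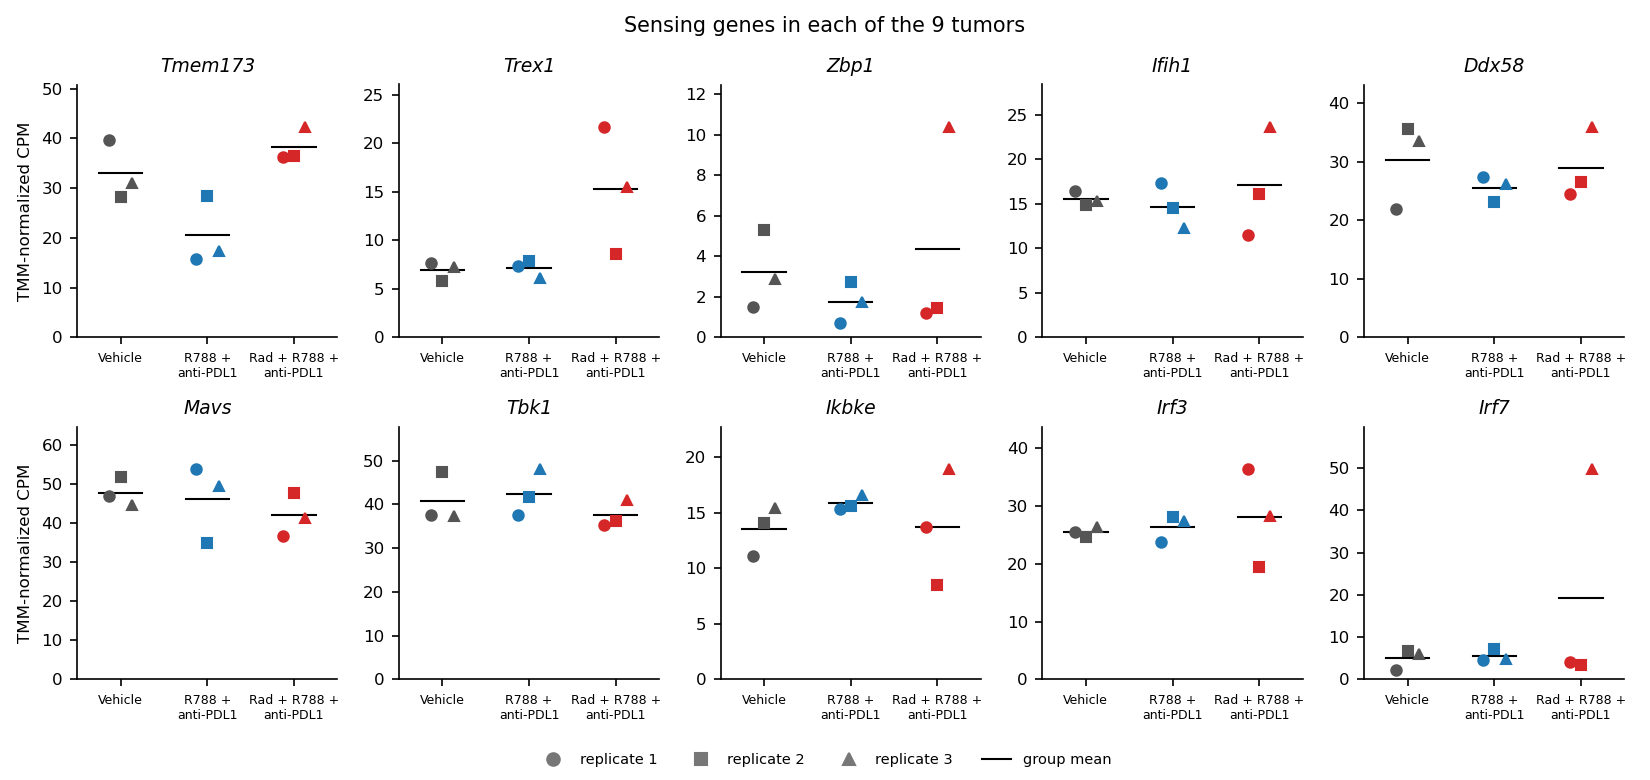
Each panel plots the TMM-normalized CPM (y axis, from 0) of a sensing gene in the 9 tumors by treatment group (x axis), with symbols for replicates and a line for the group mean. *Trex1* reached 21.7 and 15.5 CPM in irradiated replicates 1 and 3, and *Irf7* reached 49.9 CPM in irradiated replicate 3, while *Tbk1* and *Mavs* varied little between groups.

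On the DNA arm, the largest *Tmem173* difference was between the 2 treated groups. *Tmem173* (ENSMUSG00000024349.10) was measured at 39.7, 28.1 and 31.1 CPM in Vehicle tumors, 15.8, 28.5 and 17.3 CPM in R788 + anti-PDL1 tumors, and 36.3, 36.4 and 42.4 CPM in irradiated tumors. All 3 irradiated tumors lay above all 3 R788 + anti-PDL1 tumors, and the irradiated and Vehicle tumors overlapped. The level was 1.87-fold higher in irradiated than in R788 + anti-PDL1 tumors (log2 fold change 0.90 ± 0.26 SE, edgeR unadjusted p = 0.00666, adjusted p = 0.222). DESeq2 gave an adjusted p of 0.0386 for the same difference, and voom with quality weights 0.00129.

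The R788 + anti-PDL1 tumors were the low group. Against Vehicle, their *Tmem173* log2 fold change was -0.68 ± 0.26 (edgeR unadjusted p = 0.0267, adjusted p = 0.342), and replicate 2 of the treated group lay within the Vehicle range. Between irradiated and Vehicle tumors the log2 fold change of *Tmem173* was 0.22 ± 0.26 (edgeR adjusted p = 0.682). The difference between irradiated and R788 + anti-PDL1 tumors was positive in all 15 alternatives, at 0.74 to 1.21 on the log2 scale. It was called in 2 of them, DESeq2 and voom with quality weights.

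*Trex1* was the only member whose irradiated tumors lay above both other groups. *Trex1* (ENSMUSG00000049734.9, chromosome 9, 109057933 to 109059734, GRCm38, minus strand) was at 7.67, 5.83 and 7.23 CPM in Vehicle tumors, 7.36, 7.90 and 6.14 CPM in R788 + anti-PDL1 tumors, and 21.7, 8.62 and 15.5 CPM in irradiated tumors. The lowest irradiated tumor, replicate 2, was only slightly above the highest tumor of the other groups at 7.90 CPM. The mean was 15.3 ± 6.56 CPM (SD, n = 3) in irradiated tumors and 6.91 ± 0.959 CPM in Vehicle tumors, a 2.21-fold difference (log2 1.14 ± 0.35 SE, edgeR unadjusted p = 0.00844, adjusted p = 0.265). Against R788 + anti-PDL1 it was 2.14-fold (log2 1.10 ± 0.34, edgeR unadjusted p = 0.0104, adjusted p = 0.222). Without irradiated replicate 1 these *Trex1* values were 0.84 and 0.77 on the log2 scale. DESeq2 adjusted p-values were 0.0423 and 0.048, and voom with quality weights gave 0.0305 for the second difference.

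The *Trex1* count is uncertain, because all 1147 of its exon bases also lie in exons of *Atrip* on the same strand, where Salmon has to divide the reads. *Atrip* encodes the partner of the DNA damage kinase ATR. *Atrip* was at 84.1, 27.2 and 26.4 CPM in irradiated tumors, 23.3 to 27.0 CPM in Vehicle tumors and 27.4 to 28.8 CPM in R788 + anti-PDL1 tumors. The sum of *Trex1* and *Atrip*, which does not depend on the division, was 105.9, 35.8 and 41.9 CPM in irradiated tumors, 29.2 to 34.6 CPM in Vehicle and 34.7 to 36.2 CPM in R788 + anti-PDL1 tumors. The irradiated tumors lay above Vehicle in the sum, but irradiated replicate 2 lay within the range of R788 + anti-PDL1. *Trex1* made up 20.5%, 24.1% and 37.0% of the sum in irradiated tumors and 17.7% to 22.9% in the other 6, so the high value of replicate 1 came with a high *Atrip* value and that of replicate 3 did not. The part of the division of reads in the *Trex1* difference was not tested.

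**Figure D2:**
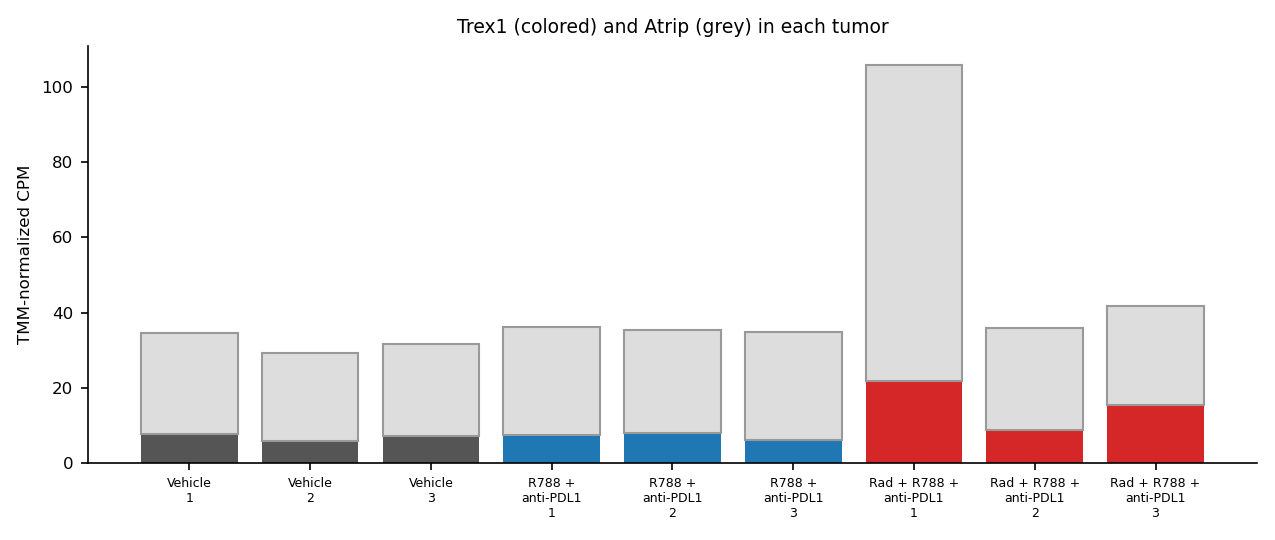
Stacked bars give the TMM-normalized CPM (y axis, from 0) of *Trex1* (colored) and *Atrip* (grey) in each tumor (x axis). Irradiated replicate 1 has the tallest bar at 105.9 CPM, and irradiated replicate 3 has the largest *Trex1* share at 37.0%.

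*Zbp1* (ENSMUSG00000027514.14, chromosome 2, 173206612 to 173218923, minus strand) was the least abundant member. It was at 1.49, 5.29 and 2.90 CPM in Vehicle tumors, 0.705, 2.71 and 1.76 CPM in R788 + anti-PDL1 tumors, and 1.18, 1.47 and 10.4 CPM in irradiated tumors. Irradiated replicate 3 had 228 *Zbp1* counts, and the other 8 libraries had 16 to 118. The groups overlapped in all 3 comparisons. The log2 fold change of *Zbp1* was 0.44 ± 0.87 for irradiated against Vehicle and 1.34 ± 0.89 for irradiated against R788 + anti-PDL1 (edgeR adjusted p = 0.816 and 0.414), and without replicate 3 both turned negative, to -1.28 and -0.38. Without replicate 1 the *Zbp1* values were 0.92 and 1.79.

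The RNA receptors showed no difference that passed the test. *Ddx58* was at 21.9, 35.7 and 33.6 CPM in Vehicle, 27.4, 23.2 and 26.2 CPM in R788 + anti-PDL1, and 24.5, 26.6 and 36.0 CPM in irradiated tumors. *Ifih1* was at 16.4, 14.9 and 15.3 CPM in Vehicle, 17.4, 14.5 and 12.2 CPM in R788 + anti-PDL1, and 11.5, 16.1 and 23.7 CPM in irradiated tumors. For both receptors irradiated replicate 3 was the highest of the 9 libraries, and for *Ifih1* irradiated replicate 1 was the lowest.

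*Mavs*, the adaptor of both receptors, was at 46.9, 51.6 and 44.5 CPM in Vehicle, 53.9, 34.8 and 49.5 CPM in R788 + anti-PDL1, and 36.8, 47.6 and 41.3 CPM in irradiated tumors. The log2 fold changes of *Ddx58*, *Ifih1* and *Mavs* lay between -0.25 and 0.22 in the 3 comparisons, with SEs of 0.21 to 0.28. Without irradiated replicate 3, the irradiated against Vehicle value was -0.17 for *Ifih1*, which had been 0.14, and -0.25 for *Ddx58*.

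Neither kinase gene passed the test. *Tbk1* had the smallest spread of the 10 genes, with a coefficient of variation of 11.8% over all 9 tumors. It was at 37.7, 47.5 and 37.3 CPM in Vehicle, 37.5, 41.7 and 48.2 CPM in R788 + anti-PDL1, and 35.4, 36.2 and 40.9 CPM in irradiated tumors. *Ikbke*, which encodes the inducible kinase IKKε, was at 11.1, 14.0 and 15.4 CPM in Vehicle, 15.4, 15.6 and 16.6 CPM in R788 + anti-PDL1, and 13.7, 8.47 and 19.0 CPM in irradiated tumors. The irradiated group thus held both the lowest and the highest *Ikbke* value of the series. The log2 fold changes of both kinases lay between -0.21 and 0.23, and without irradiated replicate 3 that of *Ikbke* against Vehicle went from 0.02 to -0.29.

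The 2 transcription factors behaved differently. *Irf3*, which is present in resting cells, was at 25.4, 24.6 and 26.3 CPM in Vehicle, 23.8, 28.2 and 27.4 CPM in R788 + anti-PDL1, and 36.5, 19.4 and 28.3 CPM in irradiated tumors. Its irradiated tumors again spanned the whole range of the series, and its log2 fold changes were 0.06, 0.14 and 0.08 in the 3 comparisons. Without irradiated replicate 1 the irradiated values of *Irf3* were -0.06 and -0.14. A stretch of 88 *Irf3* exon bases overlaps *Bcl2l12* on the opposite strand.

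*Irf7* (ENSMUSG00000025498.15, chromosome 7, 141262706 to 141266481, minus strand), the interferon-inducible factor, was at 2.26, 6.73 and 5.91 CPM in Vehicle tumors, 4.63, 7.21 and 4.75 CPM in R788 + anti-PDL1 tumors, and 4.20, 3.40 and 49.9 CPM in irradiated tumors. In counts, irradiated replicate 3 had 1093 against 41 to 189 in the other 8 libraries. Irradiated replicates 1 and 2 lay within the Vehicle range. The log2 fold change was 1.95 ± 0.94 against Vehicle and 1.79 ± 0.93 against R788 + anti-PDL1 (edgeR adjusted p = 0.392 and 0.315), and without replicate 3 these *Irf7* values were -0.39 and -0.55. Without replicate 1 they were 2.47 and 2.28. The spread of *Irf7* over the 9 tumors was the largest of the 10 genes, with a coefficient of variation of 153%.

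**Figure D3:**
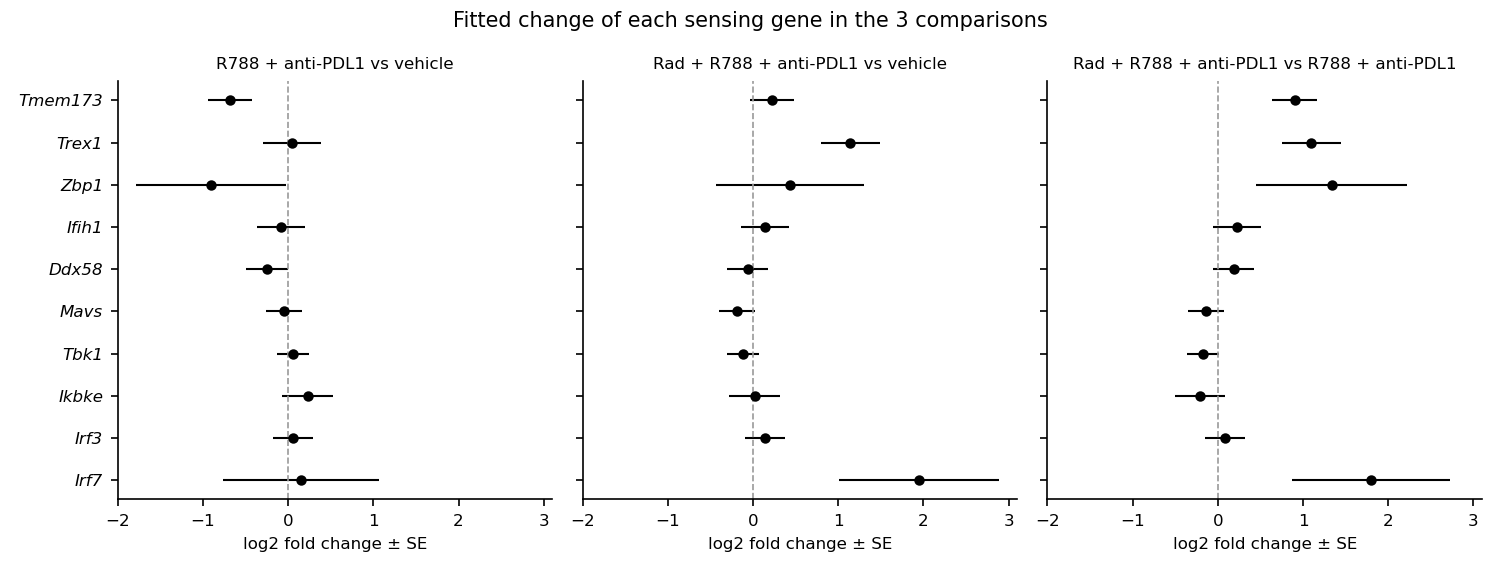
Points give the log2 fold change from the edgeR fit (x axis) of each sensing gene (y axis) in the 3 comparisons, with bars of 1 SE. The *Trex1* values of 1.14 and 1.10 in the irradiated comparisons and the *Tmem173* value of 0.90 against R788 + anti-PDL1 lie furthest from 0 relative to their SE, and *Irf7* and *Zbp1* have the widest bars.

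Irradiated replicate 3 was the highest of the 9 libraries for 6 of the 10 members, compared with 9.11% of all genes tested. Its level relative to the higher of the other 2 irradiated tumors was 11.9-fold for *Irf7*, a ratio reached by 0.484% of all genes, and 7.07-fold for *Zbp1*, reached by 1.07% of all genes. For the other 8 members the ratio was between 0.714 for *Trex1* and 1.47 for *Ifih1*. Ratios over 2-fold were found for 2 of 10 members, 9 of 12 interferon-induced readout genes tested, 7 of 12 macrophage markers and 3 of 4 T cell markers tested, compared with 5.78% of all genes.

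**Figure D4:**
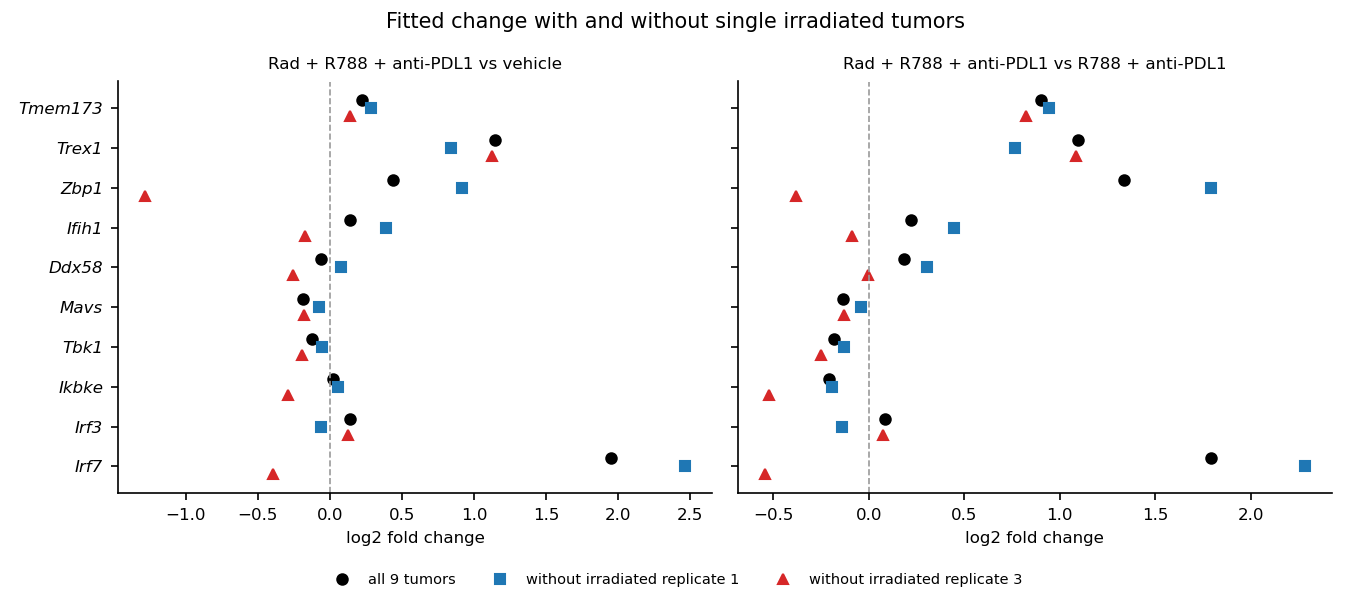
The log2 fold change (x axis) of each sensing gene (y axis) is plotted for both irradiated comparisons with all 9 tumors (black), without irradiated replicate 1 (blue) and without irradiated replicate 3 (red). *Irf7* moves from 1.95 to -0.39 against Vehicle without replicate 3, while *Tmem173*, *Trex1*, *Tbk1* and *Mavs* stay on the same side of 0 in all 3 fits.

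Markers of other cells were high in the same tumor. The summed level of the 12 macrophage markers was 1919 CPM in irradiated replicate 3 and 334 to 743 CPM in the other 8 tumors. The summed level of the 10 T cell markers was 47.9 CPM in irradiated replicate 3 and 3.59 to 29.9 CPM elsewhere. The 29.9 CPM belonged to R788 + anti-PDL1 replicate 1, where 5 of the 10 markers were at or under 3 counts. *Cd4* and *Lck* averaged 12.4 and 6.53 CPM in R788 + anti-PDL1 tumors, so the sum there mainly follows these genes. *Cd3e*, a defining T cell gene, had 54 counts in irradiated replicate 3 against 1 to 5 elsewhere. Plasmacytoid dendritic cells, which hold much IRF7, were checked by *Siglech*, with 2 counts in irradiated replicate 3 and 0 to 6 in all libraries, and by *Ccr9*, with 5 counts and 0 to 23. All 8 markers of these cells had a count in irradiated replicate 3, where 1 was at or under 3 counts, and in the other 8 libraries 2 to 6 were. *Spib*, another of the 8, had its highest count there, 33 against 0 to 18. Summed plasmacytoid dendritic cell markers were 279 CPM in irradiated replicate 3 and 185 to 372 CPM elsewhere. *Tcf4* and *Bst2* averaged 271 and 60.7 CPM in Vehicle tumors, and *Spib* and *Ccr9* 0.837 and 0.447 CPM. This sum therefore mainly follows *Tcf4* and *Bst2*. Fibroblast markers were at 4384 CPM in irradiated replicate 3 and 2548 to 5459 CPM elsewhere, and endothelial markers at 70.2 CPM and 39.8 to 130 CPM. The part of infiltrating cells in the *Irf7* and *Zbp1* values was not tested.

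The other genes of the pathway were described in 7 lists with 81 genes, of which 76 were tested. In each of the 3 comparisons, edgeR called 0 of the 76. At an unadjusted p under 0.05, 1 was higher and 7 lower in R788 + anti-PDL1 than in Vehicle, 5 were higher and 4 lower in irradiated than in Vehicle tumors, and 11 were higher and 0 lower in irradiated than in R788 + anti-PDL1 tumors. These were 10.5%, 11.8% and 14.5% of the 76, against 11.7%, 13.2% and 18.4% of all genes. DESeq2 called 0, 2 and 3 of the 76 (0%, 2.63% and 3.95%, against 4.86%, 3.85% and 5.76% of all genes), limma-voom called 0, 0 and 0, and voom with quality weights called 18, 8 and 9, or 23.7%, 10.5% and 11.8%, against the 30.3%, 12.6% and 19.4% of all genes. The median log2 fold changes of the 76 genes were -0.15, 0.07 and 0.25. Without irradiated replicate 3 the latter 2 were -0.30 and -0.23.

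Among 16 DNA sensors and STING partners, the cGAS gene (*Mb21d1*) was low, at 0.547, 0.538 and 0.657 CPM in Vehicle, 1.28, 2.17 and 1.27 CPM in R788 + anti-PDL1, and 0.516, 1.12 and 3.92 CPM in irradiated tumors. All 3 R788 + anti-PDL1 tumors lay above Vehicle, and the irradiated tumors lay on both sides of it. The *Mb21d1* log2 fold change was 1.43 ± 0.71 for R788 + anti-PDL1 and 1.67 ± 0.71 for irradiated tumors against Vehicle (edgeR adjusted p = 0.50 and 0.365). The irradiated *Mb21d1* value was 0.50 without irradiated replicate 3 and 2.14 without irradiated replicate 1. *Ermp1*, a reported STING partner, was lower in all irradiated than in all Vehicle tumors, at -0.89 ± 0.36 (edgeR adjusted p = 0.355), and at -0.53 without irradiated replicate 1. Voom with quality weights called *Ermp1*.

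Among 11 nucleases, *Rnaseh2a*, a subunit of the enzyme that removes RNA from DNA, was at 215, 57.8 and 54.4 CPM in irradiated tumors and at 43.5 to 53.7 CPM in R788 + anti-PDL1 tumors. As with *Atrip*, irradiated replicate 1 was far above the others, and without it the *Rnaseh2a* log2 fold change against R788 + anti-PDL1 went from 1.21 ± 0.47 (edgeR adjusted p = 0.246) to 0.26. *Dnase1l3*, a nuclease secreted by myeloid cells, had 1, 26 and 49 counts in irradiated tumors, 18 to 27 in R788 + anti-PDL1 and 1 to 4 in Vehicle tumors. Its log2 fold changes against Vehicle were 2.91 ± 1.01 in irradiated and 2.40 ± 1.004 in R788 + anti-PDL1 tumors (edgeR adjusted p = 0.307 and 0.389), and voom with quality weights called *Dnase1l3* in both.

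Among 12 cofactors of the RNA receptors, *Nlrx1*, a mitochondrial protein that restrains MAVS, was at 3.68, 6.74 and 6.29 CPM in irradiated tumors and 2.15, 1.79 and 2.08 CPM in Vehicle tumors. All irradiated tumors lay above all Vehicle tumors. The *Nlrx1* log2 fold change was 1.47 ± 0.44 (edgeR adjusted p = 0.265, DESeq2 and voom with quality weights called it), and it was 1.37 without irradiated replicate 3 and 1.72 without irradiated replicate 1. *Trim25*, a ubiquitin ligase that activates RIG-I, was at 48.8, 65.3 and 74.3 CPM in irradiated tumors, below the Vehicle values of 86.6, 103 and 107 CPM (log2 -0.65 ± 0.23, edgeR adjusted p = 0.316), and voom with quality weights called *Trim25*. *Dhx58*, the third RIG-I-like receptor, was at 1.69, 2.79 and 11.2 CPM in irradiated and 3.42 to 6.24 CPM in Vehicle tumors, with a log2 fold change of 0.06 ± 0.63 that became -1.16 without replicate 3.

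edgeR called none of the 13 adaptors and 5 cell death partners in any comparison. At an edgeR unadjusted p under 0.05, 3 and 0 of them (23.1% and 0%) were found in R788 + anti-PDL1 against Vehicle. In irradiated against Vehicle there were 2 and 1 (15.4% and 20%), and in irradiated against R788 + anti-PDL1 again 2 and 1 (15.4% and 20%). Over all genes the shares were 11.7%, 13.2% and 18.4%. With so few genes in the lists, these shares were not read as a difference from all genes. Among the 13 adaptors, *Tbkbp1*, a TBK1 scaffold, and *Traf6*, a ubiquitin ligase, had log2 fold changes of -0.69 ± 0.30 and -0.55 ± 0.24 in irradiated against Vehicle tumors (edgeR adjusted p = 0.365 and 0.371), and -0.44 and -0.34 without irradiated replicate 1. Voom with quality weights called both of these genes, and it called *Mlkl* and the adaptor gene *Myd88*, named here after its values were seen, in irradiated against R788 + anti-PDL1 tumors. DESeq2 also called *Myd88* there, and limma-voom called none of these genes. *Mlkl*, the pore-forming protein of necroptosis downstream of ZBP1, was at 44.5, 21.1 and 22.3 CPM in irradiated tumors and 14.6 to 19.6 CPM in the other 6. Its log2 fold change against Vehicle was 0.68 ± 0.30 (edgeR adjusted p = 0.372), and 0.27 without irradiated replicate 1. *Casp8*, which holds necroptosis in check, had a log2 fold change of -0.48 ± 0.48 against Vehicle, which was -0.02 without irradiated replicate 1 and -0.99 without irradiated replicate 3.

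Of the interferon receptor and its signalling complex, *Ifnar2* was at 92.8, 50.1 and 54.9 CPM in irradiated, 36.5, 34.5 and 39.4 CPM in R788 + anti-PDL1 and 43.4, 47.3 and 45.4 CPM in Vehicle tumors. The irradiated tumors lay above both other groups, with a log2 fold change of 0.84 ± 0.24 against R788 + anti-PDL1 (edgeR adjusted p = 0.222, DESeq2 and voom with quality weights called it) and 0.54 ± 0.24 against Vehicle (edgeR adjusted p = 0.379). Without irradiated replicate 1, its highest tumor, the *Ifnar2* values were 0.52 and 0.24. The receptor kinase gene *Tyk2* had a log2 fold change of -0.26 ± 0.29 against Vehicle, which was 0.01 without irradiated replicate 1 and -0.60 without irradiated replicate 3.

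The interferon transcripts in the list, *Ifnb1*, *Ifna2*, *Ifna4*, *Ifnl2* and *Ifnl3*, were at the limit of detection. Other interferon genes were not examined here. *Ifnb1* had 1 count in R788 + anti-PDL1 replicate 3 and 0 in the other 8 libraries, and a count of 0 allows up to 3 counts, or 0.114 to 0.221 CPM. *Ifna2*, *Ifna4* and *Ifnl3* had 0 counts in all 9 libraries, and *Ifnl2* had 0 or 1. Of the 12 tested readout genes, *Oas1a*, an interferon-induced enzyme that senses double-stranded RNA, had the lowest p. *Oas1a* was at 13.04, 6.59 and 20.4 CPM in irradiated, 4.01, 5.30 and 4.46 CPM in R788 + anti-PDL1 and 3.70, 3.36 and 3.83 CPM in Vehicle tumors. All irradiated tumors lay above all others, with log2 fold changes of 1.88 ± 0.40 against Vehicle and 1.54 ± 0.40 against R788 + anti-PDL1 (edgeR adjusted p = 0.144 and 0.194). DESeq2 and voom with quality weights called *Oas1a* in both, and without irradiated replicate 3 the values were 1.43 and 1.09.

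The other readout genes named were highest in irradiated replicate 3. *Isg15* was at 6.56, 2.28 and 9.30 CPM in irradiated, 2.20, 1.91 and 3.36 CPM in R788 + anti-PDL1 and 3.92, 8.79 and 7.83 CPM in Vehicle tumors, and its R788 + anti-PDL1 tumors lay below all Vehicle tumors (log2 -1.46 ± 0.54, edgeR adjusted p = 0.324). *Ifit1* was at 3.76, 2.69 and 17.9 CPM in irradiated and 2.37, 11.8 and 8.76 CPM in Vehicle tumors. *Cxcl10*, a chemokine that attracts T cells, was at 6.48, 4.21 and 10.8 CPM in irradiated, 2.47, 3.66 and 3.23 CPM in R788 + anti-PDL1 and 1.60, 5.38 and 6.63 CPM in Vehicle tumors. The chemokine gene *Ccl5* had 278 counts in irradiated replicate 3 and 13 to 91 elsewhere.

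All 12 tested readout genes had positive log2 fold changes in irradiated against R788 + anti-PDL1 tumors, with a median of 1.23, and 9 of 12 were positive against Vehicle, with a median of 0.82. Without irradiated replicate 3 these were 4 of 12 with a median of -0.40 and 2 of 12 with a median of -0.90. Without irradiated replicate 1 they were 12 of 12 with a median of 1.61 and 11 of 12 with a median of 1.15. The summed level of this list was 206 CPM in irradiated replicate 3, 48.1 and 49.0 CPM in irradiated replicates 1 and 2, and 48.2 to 95.1 CPM in the other 6 tumors. The sensing genes with the largest ratios of irradiated replicate 3 to the other irradiated tumors were *Irf7* and *Zbp1*. They and the readout genes were thus high in the same tumor, in which the macrophage and T cell marker sums were also the highest.

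**Figure D5:**
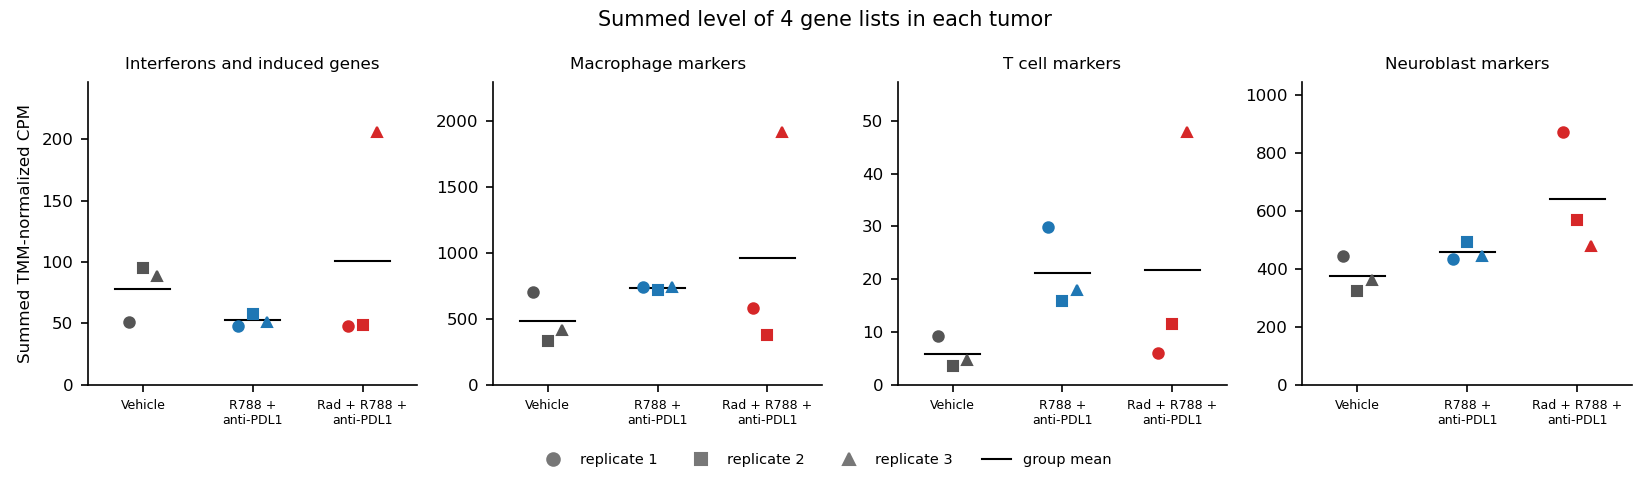
Panels plot the summed TMM-normalized CPM (y axis, from 0) of 4 gene lists in the 9 tumors by treatment group (x axis), with symbols for replicates and a line for the group mean. Irradiated replicate 3 is the highest tumor for the interferon list (206 CPM), macrophage markers (1919 CPM) and T cell markers (47.9 CPM). Irradiated replicate 1 is the highest for neuroblast markers (873 CPM), of which 6 of 10 had 0 counts there. *Hand2* alone averaged 455 CPM in R788 + anti-PDL1 tumors, where the neuroblast sums were 434 to 494 CPM.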

How the data were processed

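Whole-tumor RNA was sequenced from poly(A)-selected libraries of 9 tumors. The authors aligned reads to mm10 and quantified genes in a bcbio pipeline, and the submitters' processing notes list STAR 2.6.1d and Salmon 1.4.0. The deposited values were estimated counts from Salmon, given as whole numbers per gene symbol without normalization. One label field refers to bone marrow-derived macrophages as the origin of the RNA, but every sample is labelled a whole tumor, which was followed here. Strandedness was not given in the sources used here, so counts at overlapping genes were treated as uncertain.

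Groups were taken from the treatment labels. Counts were filtered with filterByExpr (minimum count 10), scaled with TMM factors, and groups were compared with edgeR 4.0.16 (R 4.3.3), using glmQLFit with the robust option and glmQLFTest. A single model held the 9 libraries and 3 groups, without covariates. Tests were two-sided, p-values were adjusted by Benjamini-Hochberg over the 15931 genes tested, and genes were called under 0.05. The 3 comparisons share groups. Replicate numbers were checked as a pairing by correlating deviations from the group means. Tumors of the same number correlated weakly, and the numbers were not taken as a pairing. Alternatives were DESeq2 1.42.0, limma-voom (limma 3.58.1), other normalizations and filters, only the 6 libraries compared, a replicate block, leaving out each library, and, added after seeing the data, voom with sample quality weights. The fitting code was tested on simulated data.

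The members and the gene lists were chosen with earlier results of these data known. All 10 members were named, with further genes (*Mb21d1*, *Dhx58*, *Ifnb1*, *Ifit1*, *Isg15*, *Cxcl10*) whatever their values (some results are not reported here) and, from each other list without a called gene, those with the lowest p in irradiated against Vehicle tumors, up to 2. *Atrip* was named after its values were seen. Cell type lists were plasmacytoid dendritic cell, macrophage, T cell, endothelial, fibroblast and neuroblast markers. Coordinates, exon lengths and overlaps are from GENCODE M21 (GRCm38), and promoter sequences from RefSeq (GRCm38.p6). Counts are of reads without molecular identifiers, so limits cover counting error only.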

Additional observations from a re-analysis of the deposited data

How the results depend on the processing

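The 15 alternatives left the direction of most single sensing genes in place, and no sensing gene was called when any 1 library was left out. Of the values of single genes, 408 kept direction and side of the threshold, 6 passed the threshold only under an alternative (*Tmem173* and *Trex1*, by DESeq2 or voom with quality weights), and 36 turned sign. For R788 + anti-PDL1 against Vehicle, the 108 genes called became 770 with DESeq2, 199 without a filter, 594 in the 6 libraries compared, 0 with a replicate block, 4831 with quality weights, and 0 to 75 when a library was left out. For irradiated against Vehicle, the 7 called became 611, 70, 1, 3 and 2010 under the same settings, and 1 to 57. For irradiated against R788 + anti-PDL1, the 1 called became 824, 24, 0, 0 and 3089, with 8 for limma-voom, and 0 to 21. The sensing genes called went from 0 to 1 with quality weights (R788 + anti-PDL1 against Vehicle), to 1 with DESeq2 (irradiated against Vehicle), and to 2 with DESeq2 and 2 with quality weights (irradiated against R788 + anti-PDL1). The cause was not tested. When a library was left out, the members' median ranged from -0.19 to 0.26 for irradiated against Vehicle and from -0.11 to 0.38 for irradiated against R788 + anti-PDL1.

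The genes that turned sign had small or 1-tumor differences. For R788 + anti-PDL1 against Vehicle, upper-quartile scaling gave 0.000308 for *Ifih1* and 0.029 for *Mavs*, and quality weights gave -0.22 for *Irf7*, 0.090 for *Mavs* and -0.10 for *Trex1*. Leaving out a library gave -0.05 to 0.18 for *Tbk1*, -0.22 to 0.032 for *Ifih1*, -0.17 to 0.43 for *Irf7*, -0.18 to 0.11 for *Mavs* and -0.067 to 0.15 for *Trex1*. For irradiated against Vehicle, limma-voom gave -0.016 for *Zbp1* and -0.037 for *Ikbke*, upper-quartile scaling 0.0019 for *Ddx58*, the replicate block -0.018 for *Ikbke*, and quality weights -0.15 for *Irf3* and -0.25 for *Ikbke*. Leaving out a library gave -0.061 to 0.34 for *Irf3*, -0.39 to 2.47 for *Irf7*, -0.17 to 0.39 for *Ifih1*, -0.25 to 0.078 for *Ddx58*, -1.28 to 0.99 for *Zbp1* and -0.29 to 0.27 for *Ikbke*. For irradiated against R788 + anti-PDL1, quality weights gave -0.20 for *Irf3*, and leaving out a library gave -0.14 to 0.29 for *Irf3*, -0.55 to 2.29 for *Irf7*, -0.089 to 0.45 for *Ifih1*, -0.00208 to 0.30 for *Ddx58*, -0.38 to 1.82 for *Zbp1* and -0.52 to 0.043 for *Ikbke*. The lowest *Irf7*, *Zbp1*, *Ifih1*, *Ddx58* and *Ikbke* values in both irradiated comparisons came without irradiated replicate 3.

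Tumors with the same replicate number shared deviations from their group means weakly, with correlations across genes of 0.233, 0.191 and 0.054 between irradiated and Vehicle, 0.056, -0.0089 and 0.012 between irradiated and R788 + anti-PDL1, and -0.038, -0.046 and -0.038 between R788 + anti-PDL1 and Vehicle. Among Vehicle tumors, irradiated replicates 1 and 2 correlated best with the tumor of their own number. Irradiated replicate 3 correlated best with Vehicle replicate 2 (0.123). The numbers were not taken as a pairing.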
